A study of Mus musculus with 12 samples.

Results

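This account covers the circadian clock genes of mouse lung in a study of house dust mite (HDM) allergy. The members were 10 genes listed by symbol: Arntl (also written Bmal1), Clock, Npas2, Per1, Per2, Per3, Cry1, Nr1d1, Nr1d2 and Dbp. Each gene was read from the probe set with the highest mean among those that carry its symbol alone. In this way 9 of the 10 were measured, each by 1 probe set, out of 19937 genes in all. Npas2 was not analysed here, because the annotation used does not name it.

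Whole lungs of Balb/c mice were measured on Affymetrix arrays, 1 array for each mouse and 3 mice in each of 4 groups. Eosinophilic mice received 3 intraperitoneal injections of HDM extract with 0.75 DU (development units) of each of Der f and Der p on 1.5 mg of aluminium hydroxide, and were then challenged into the nose on days 26 to 28. Mixed mice received only intranasal HDM at 0.75 DU of each allergen, in 4 weekly applications. Neutrophilic mice followed the same weekly schedule at 7.5 DU of each allergen. Control mice received PBS into the nose. The labels give no genetic modification, sex, age, light schedule or hour at which the lungs were taken. The group names are those of the inflammation the submitters assigned, and each sample is all cells of a lung together.

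Circadian clocks are transcriptional feedback loops that run in nearly every cell, lung cells included. ARNTL pairs with CLOCK (or its relative NPAS2) and activates genes through E-box elements, among them the Period and Cryptochrome genes, whose proteins return to block that pair. A second loop is made by NR1D1 and NR1D2 (REV-ERB alpha and beta), which repress Arntl through ROR response elements, and DBP drives output genes and Per3 through D-box elements. In the lung, the clock of airway epithelial cells and macrophages is known to shape the size of inflammatory responses over the day.

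Promoter windows were searched for the elements through which these factors act on each other. The windows come from RefSeq (GRCm38.p6) and run from 250 bases before to 50 bases after an annotated start. Windows were found for 9 of the 10 members, all but Per2, and numbered 13 in all. Both strands were searched for the E-box CACGTG, the related E-prime box CACGTT, the D-box TTATGTAA and a loose ROR core, TNGGTCA. Here N is any base, while the core of the ROR response element has A or G there. Capitals mark the matches. The motifs do not overlap in the windows printed. The set shows the member with D-boxes (Per3), the member with the largest fall (Nr1d1), the target of NR1D1 (Arntl, the more 3′ of 2 windows), a member with an E-box (Per1, the more 5′ of 2 windows) and Dbp.
Per3, chr4:151044616-151044915, minus strand: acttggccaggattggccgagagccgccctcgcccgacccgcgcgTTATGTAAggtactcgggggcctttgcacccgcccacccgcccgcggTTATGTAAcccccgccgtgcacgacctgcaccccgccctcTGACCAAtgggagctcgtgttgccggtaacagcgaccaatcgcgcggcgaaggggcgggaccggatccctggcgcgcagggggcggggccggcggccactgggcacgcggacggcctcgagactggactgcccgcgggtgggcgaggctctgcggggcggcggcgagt
Nr1d1, chr11:98775328-98775627, minus strand: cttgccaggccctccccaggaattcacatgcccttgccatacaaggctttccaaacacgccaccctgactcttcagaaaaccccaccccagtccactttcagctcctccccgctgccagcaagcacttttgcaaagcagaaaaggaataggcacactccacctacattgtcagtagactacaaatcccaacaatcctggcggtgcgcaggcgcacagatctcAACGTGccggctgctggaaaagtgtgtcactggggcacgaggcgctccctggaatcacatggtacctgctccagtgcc
Arntl, chr7:113207261-113207560, plus strand: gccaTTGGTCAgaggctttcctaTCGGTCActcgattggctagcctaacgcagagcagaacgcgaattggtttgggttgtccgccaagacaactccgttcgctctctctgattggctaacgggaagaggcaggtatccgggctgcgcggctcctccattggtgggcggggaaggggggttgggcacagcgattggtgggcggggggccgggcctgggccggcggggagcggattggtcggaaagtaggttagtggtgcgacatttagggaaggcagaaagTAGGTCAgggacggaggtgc
Per1, chr11:69098699-69098998, plus strand: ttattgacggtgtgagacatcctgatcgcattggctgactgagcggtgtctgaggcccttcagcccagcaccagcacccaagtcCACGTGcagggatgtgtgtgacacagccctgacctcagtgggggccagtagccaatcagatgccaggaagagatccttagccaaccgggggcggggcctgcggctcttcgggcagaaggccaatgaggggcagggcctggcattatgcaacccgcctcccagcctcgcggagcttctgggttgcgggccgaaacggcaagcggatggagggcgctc
Dbp, chr7:45704997-45705296, plus strand: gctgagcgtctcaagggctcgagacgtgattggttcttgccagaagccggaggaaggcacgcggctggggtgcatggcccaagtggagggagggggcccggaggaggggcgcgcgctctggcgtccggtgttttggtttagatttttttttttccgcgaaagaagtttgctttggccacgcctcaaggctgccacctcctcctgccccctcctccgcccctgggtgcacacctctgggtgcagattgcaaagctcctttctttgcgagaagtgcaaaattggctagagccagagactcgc

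The Per3 window held the D-box at 205 and again at 158 bases before the start. It also held a match to the loose ROR core on the other strand (TGACCAA), at 118 bases before it. A D-box was found in 0.938% of the 32851 windows of all genes, and at least 2 of them in only 7 windows (0.0213%). The Nr1d1 window held an E-prime box on the other strand, 28 bases before the start (4.68% of all windows hold one). The Per1 window held an E-box 166 bases before the start (7.15% of all windows). Arntl had 3 matches to the loose ROR core, with T, C and A at the N. The match with A, TAGGTCA, lay 30 bases after the start. At least 1 loose match was found in 11% of all windows. The Dbp window held none of these letters. A match describes the sequence only. It is not a measured binding site.

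The array of eosinophilic mouse 7 stood apart over all probe sets. Set against the median of the remaining arrays its correlation was 0.356, and its SD was 0.995 on the log2 scale, against correlations of 0.956 to 0.980 and SDs of 1.77 to 2.04 on 9 of the arrays. Eosinophilic mouse 9 and neutrophilic mouse 23 had narrower values too (SDs of 1.52 and 1.51, correlations of 0.863 and 0.868). Mouse 7 was left out of the fits reported first, which used 11 arrays with 2 eosinophilic mice, and calls with all 12 arrays follow them. Markers of alveolar type 2 cells, surfactant genes among them, checked the tissue. The summed log2 level of 6 such markers lay at 67.8 to 70.8 in eosinophilic, 69.4 to 73.6 in mixed and 66.5 to 72.4 in neutrophilic lungs, against 72.0 to 73.1 in control lungs. Of 6 eosinophil markers none was called higher in eosinophilic lungs (limma, 2 at an unadjusted p under 0.05), nor in the other models. Their summed log2 level was 32.3 to 33.0 in eosinophilic, 30.3 to 31.4 in mixed and 29.8 to 32.9 in neutrophilic lungs, against 28.97 to 29.1 in control lungs. The p-values measure the spread between mice, and the small number of mice limits their precision.

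Each model was compared with the same 3 control arrays, so the 3 comparisons are not independent of each other. Nr1d1, Dbp and Per3 fell in mixed and neutrophilic lungs, and Nr1d2 and Clock fell in neutrophilic lungs as well. Per1 lay on the high side in neutrophilic lungs without passing the test, while Arntl, Per2 and Cry1 did not pass in any model. A gene was called when its adjusted p was under 0.05 (limma with Benjamini-Hochberg adjustment over 19937 genes). No member was called in eosinophilic lungs (limma, 5 of 9 at an unadjusted p under 0.05, where 1.33% of all genes were called, and 0.883% called lower). In mixed lungs 3 of 9 were called, all lower, where 1.57% of all genes were called lower. In neutrophilic lungs 5 of 9 were called, all lower, where 7.23% of all genes were called lower.

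With all 12 arrays in the fit, Per3 alone was called in mixed lungs (0.145% of all genes called lower) and in neutrophilic lungs (1.45%), and no member in eosinophilic lungs (0.497% of all genes called). A moderated F test for any difference among the 4 groups called 6 of the 9 members with 11 arrays (Clock, Per1, Per3, Nr1d1, Nr1d2 and Dbp, where 4.6% of all genes were called), and Per3 alone with 12 (0.883% of all genes). The median log2 change of the 9 members was -0.89 in eosinophilic, -0.53 in mixed and -1.52 in neutrophilic lungs, beside medians over all genes of 0.01, 0.00 and 0.05. The eosinophilic median rests on 2 mice. It was -0.36 without eosinophilic mouse 9 and -1.26 with all 12 arrays.

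**Figure D1:**
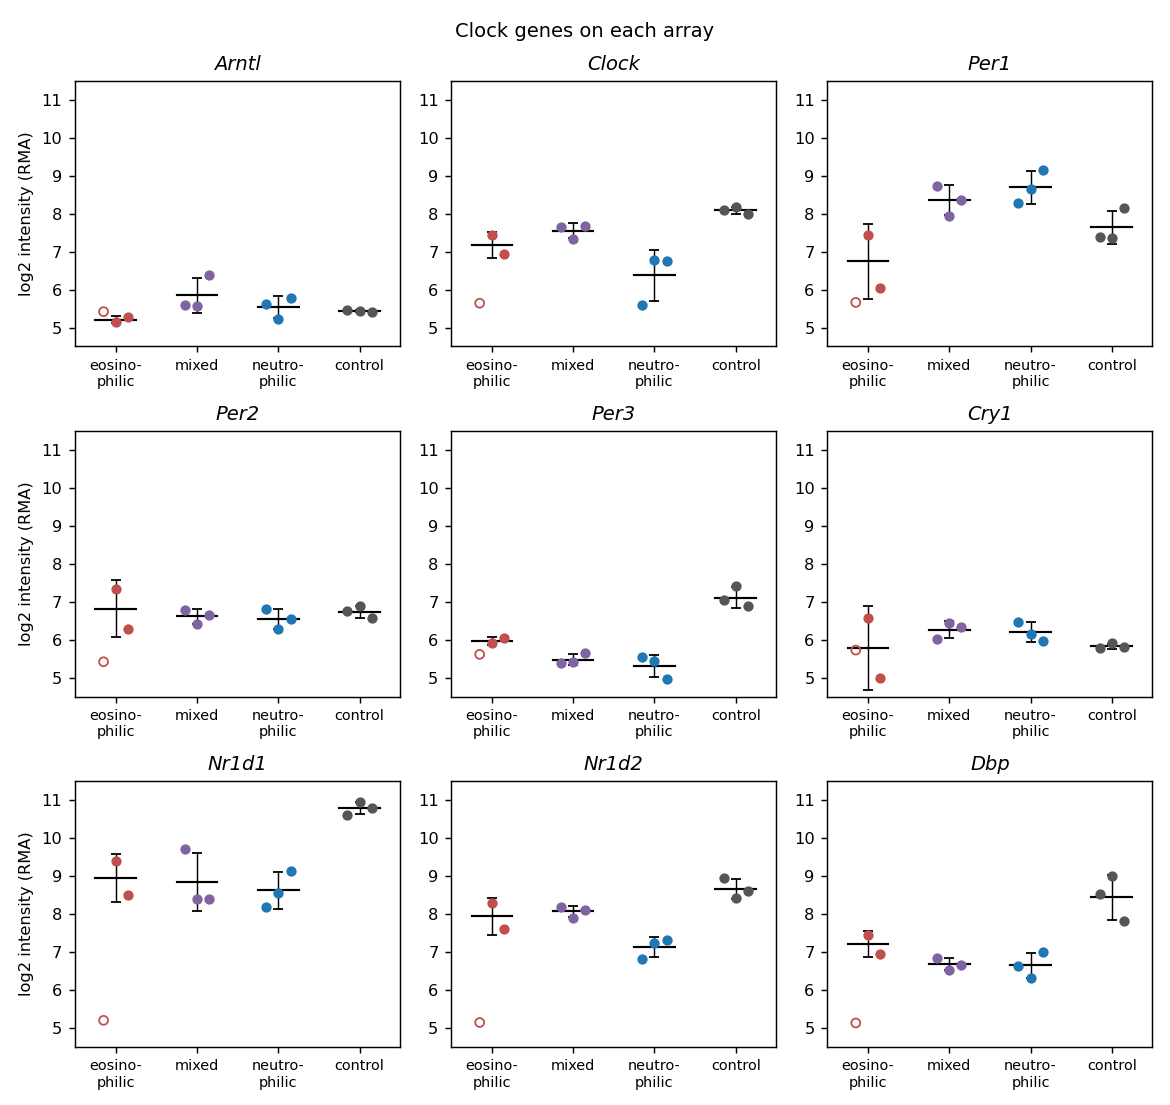
Log2 intensity (vertical axis) of the 9 measured clock genes on each array, by group. Each point is 1 mouse, the open circle is eosinophilic mouse 7, and the line and bar are the mean and SD without that mouse. The values of Nr1d1, Dbp and Per3 in all 3 models lie below every control value.

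Nr1d1 encodes the heme-binding repressor at the centre of the second loop. Its log2 levels were 9.40 and 8.51 in eosinophilic lungs (mice 8 and 9), 9.72, 8.40 and 8.40 in mixed lungs and 8.18, 8.56 and 9.13 in neutrophilic lungs, against 10.62, 10.95 and 10.81 in control lungs. Every model value lay below every control value, by at least 0.90 on the log2 scale. The means were 8.95 ± 0.63 in eosinophilic lungs (SD, n = 2), 8.84 ± 0.76 in mixed and 8.62 ± 0.48 in neutrophilic lungs, against 10.79 ± 0.17 in control lungs (SD, n = 3 each).

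Nr1d1 fell by 2.17 on the log2 scale in neutrophilic lungs (SE 0.38, adjusted p = 0.00347), so that control lungs were 4.5-fold higher. It fell by 1.95 in mixed lungs (SE 0.38, adjusted p = 0.0134, control 3.87-fold higher). In eosinophilic lungs the change was -1.84 (SE 0.42, adjusted p = 0.0526), with 95% limits of -2.75 and -0.93. With 12 arrays the adjusted p was 0.212 in neutrophilic and 0.522 in mixed lungs. The call in mixed lungs was also lost without control mouse 1 (adjusted p = 0.051), control mouse 2 (0.0811), mixed mouse 16 (0.0799) or mixed mouse 17 (0.0785).

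Nr1d2 is the paralogue of Nr1d1 with an overlapping role. It measured 8.29 and 7.60 in eosinophilic, 8.18, 7.90 and 8.12 in mixed and 6.83, 7.24 and 7.33 in neutrophilic lungs, against 8.95, 8.42 and 8.59 in control lungs. The lowest control value stood 0.12 above the highest eosinophilic value and 0.24 above the highest mixed value, and 1.09 above the highest neutrophilic value. The fall was called in neutrophilic lungs (log2 -1.52, SE 0.27, adjusted p = 0.00347, control 2.87-fold higher), but with 12 arrays its adjusted p was 0.241. The differences in mixed (-0.59, SE 0.27, adjusted p = 0.369) and eosinophilic lungs (-0.71, SE 0.30, adjusted p = 0.259) were not called.

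Dbp encodes a PAR bZIP activator and is among the most rhythmic transcripts of mouse tissues. Its log2 levels were 7.45 and 6.96 in eosinophilic, 6.84, 6.53 and 6.65 in mixed and 6.62, 6.32 and 6.99 in neutrophilic lungs, against 8.52, 9.0 and 7.81 in control lungs. The control mice differed from each other by up to 1.19, the widest control spread of any member, and still lay above all model values. Dbp fell by 1.80 in neutrophilic lungs (SE 0.31, adjusted p = 0.00332) and by 1.77 in mixed lungs (SE 0.31, adjusted p = 0.00772), 3.48-fold and 3.4-fold higher in control. The eosinophilic change was -1.24 (SE 0.35, adjusted p = 0.105). With 12 arrays the adjusted p was 0.0956 in neutrophilic and 0.203 in mixed lungs, and without control mouse 2, the highest control, it was 0.0592 in mixed lungs.

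Other factors that read the D-box were measured beside Dbp. Tef, a second PAR bZIP activator, fell by 1.47 in neutrophilic lungs (SE 0.26, adjusted p = 0.00347) and by 1.27 in mixed lungs (SE 0.26, adjusted p = 0.0162), and measured -1.04 in eosinophilic lungs (adjusted p = 0.0981). With 12 arrays neither fall of Tef was called (adjusted p = 0.0927 and 0.282). Hlf, the third PAR bZIP activator, measured -0.54 in neutrophilic and -0.60 in mixed lungs and was not called (adjusted p = 0.166 and 0.226). Its values still lay below every control value on all model arrays.

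Nfil3 encodes E4BP4, the repressor that competes for the same D-boxes and is also induced in immune cells. Its log2 levels were 6.66 and 6.67 in eosinophilic, 8.10, 7.67 and 8.04 in mixed and 7.42, 8.71 and 8.69 in neutrophilic lungs, against 5.13, 4.25 and 4.56 in control lungs. No model value came within 1.53 of the highest control value. Nfil3 rose 12.3-fold in neutrophilic (log2 3.62, SE 0.35, adjusted p = 8.7e-05), 9.78-fold in mixed (log2 3.29, SE 0.35, adjusted p = 0.000211) and 4.05-fold in eosinophilic lungs (log2 2.02, SE 0.39, adjusted p = 0.0259). All 3 rises were called with 12 arrays too, at adjusted p = 0.000963, 0.00279 and 0.0462. The Nfil3 promoter window held a match to the loose ROR core on the other strand (TGACCTA), 12 bases before its start.

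**Figure D2:**
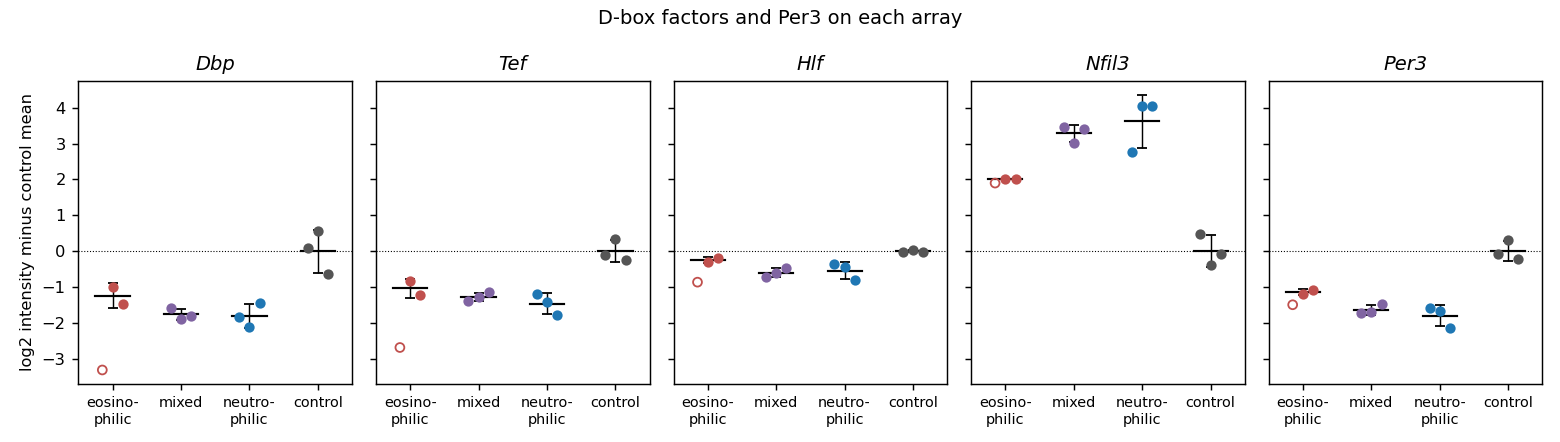
Log2 intensity minus the control mean (vertical axis) for the D-box activators Dbp, Tef and Hlf, the D-box repressor Nfil3, and Per3, by group. Points are mice, the open circle is eosinophilic mouse 7, and lines and bars are the mean and SD without it. Nfil3 lies above and Dbp, Tef, Hlf and Per3 lie below all control values on every model array.

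Per3 had the smallest adjusted p of the members in mixed and neutrophilic lungs. It measured 5.90 and 6.04 in eosinophilic, 5.38, 5.41 and 5.64 in mixed and 5.53, 5.43 and 4.97 in neutrophilic lungs, against 7.04, 7.41 and 6.88 in control lungs. All model values lay below all control values, with an SD of at most 0.30 within any group. Per3 fell by 1.80 in neutrophilic lungs (SE 0.25, adjusted p = 0.000915, control 3.48-fold higher) and by 1.63 in mixed lungs (SE 0.25, adjusted p = 0.00304, control 3.1-fold higher). Both calls stood with 12 arrays (adjusted p = 0.00897 and 0.0211) and under all 20 alternatives run. In eosinophilic lungs Per3 measured -1.14 (SE 0.28, adjusted p = 0.0656, 0.0586 with 12 arrays).

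The other Period genes, Per1 and Per2, were not called in any model with 11 arrays. Per1, which is also switched on rapidly by glucocorticoids and cAMP signalling, measured 7.45 and 6.04 in eosinophilic, 8.74, 7.95 and 8.37 in mixed and 8.29, 8.66 and 9.15 in neutrophilic lungs, against 7.39, 7.37 and 8.15 in control lungs. The neutrophilic values all lay above control, the mixed values overlapped it, and the 2 eosinophilic mice differed by 1.41. None of the differences from control was called: 1.06 in neutrophilic lungs (SE 0.38, adjusted p = 0.102), 0.72 in mixed (SE 0.38, adjusted p = 0.501) and -0.89 in eosinophilic lungs (SE 0.42, adjusted p = 0.313). Without mouse 7 and both narrower arrays the neutrophilic difference was 1.27 and was called (adjusted p = 0.00904, 5.76% of all genes called higher).

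Per2 measured 7.35 and 6.29 in eosinophilic, 6.79, 6.41 and 6.66 in mixed and 6.81, 6.27 and 6.55 in neutrophilic lungs, against 6.76, 6.88 and 6.56 in control lungs. All 3 model ranges overlapped the control range. The log2 differences were 0.08 in eosinophilic, -0.12 in mixed and -0.19 in neutrophilic lungs, with all 95% limits between -0.81 and 0.78. Cry1, the cryptochrome that blocks the activator pair, measured 6.57 and 4.99 in eosinophilic, 6.02, 6.45 and 6.33 in mixed and 6.48, 6.15 and 5.96 in neutrophilic lungs, against 5.78, 5.90 and 5.80 in control lungs. All mixed and neutrophilic values stood above control, by small margins, and the eosinophilic mice fell on either side. The differences were 0.43 in mixed lungs (95% limits -0.30 and 1.17), 0.36 in neutrophilic lungs (-0.37 and 1.10) and -0.05 in eosinophilic lungs, none of them called.

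Of the activators, Clock was called in neutrophilic lungs and Arntl in no model. Clock, the histone acetyltransferase partner in the activating pair, measured 7.43 and 6.93 in eosinophilic, 7.66, 7.33 and 7.68 in mixed and 5.58, 6.78 and 6.76 in neutrophilic lungs, against 8.09, 8.18 and 8.0 in control lungs. Every model value lay below control, and the lowest came from neutrophilic mouse 23, a narrower array. Clock fell by 1.72 in neutrophilic lungs (SE 0.31, adjusted p = 0.00456, control 3.29-fold higher), by 1.32 without mouse 7 and the narrower arrays (adjusted p = 0.000707, 10.2% of all genes called lower), and its adjusted p was 0.0656 with 12 arrays. In eosinophilic (-0.91, adjusted p = 0.224) and mixed lungs (-0.53, adjusted p = 0.588) it was not called.

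Arntl encodes the obligate activator of the loop. It measured 5.14 and 5.28 in eosinophilic, 5.60, 5.57 and 6.38 in mixed and 5.61, 5.23 and 5.79 in neutrophilic lungs, against 5.45, 5.43 and 5.41 in control lungs. The mixed values all lay above control, the eosinophilic values all below, and the neutrophilic values on both sides. Mixed mouse 17 set much of the mixed difference, which was 0.42 with it (SE 0.27, adjusted p = 0.653) and 0.15 without it. The neutrophilic difference was 0.11 (95% limits -0.47 and 0.69) and the eosinophilic one -0.22 (-0.87 and 0.42). The control mean of Arntl stood at percentile 48.7 among all genes, against 99.1 for Nr1d1. Whether Arntl stood clear of background was not tested.

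**Figure D3:**
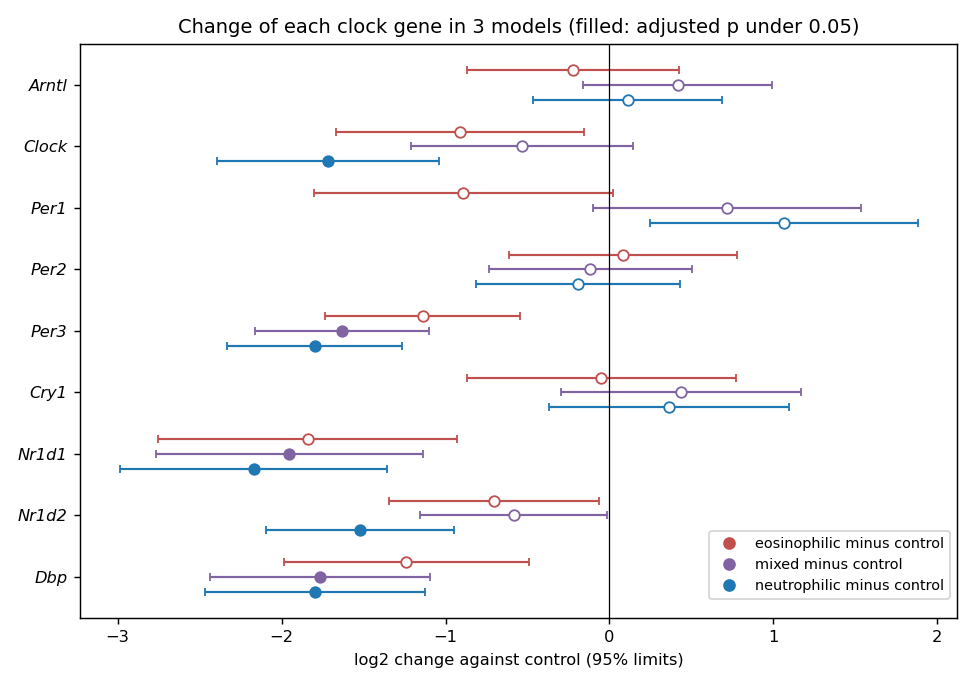
Log2 change of each clock gene against control (horizontal axis) in eosinophilic, mixed and neutrophilic lungs, from the 11-array fit. Bars are 95% limits, and filled points have an adjusted p under 0.05. Filled points are found for Nr1d1, Dbp and Per3 in mixed lungs and for these with Nr1d2 and Clock in neutrophilic lungs.

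Group by group, members stood outside the control range more often on the low side. In eosinophilic lungs 6 of 9 members lay wholly below control (19.2% of all genes did), in mixed lungs 5 (13.9%) and in neutrophilic lungs 5 (20.4%). Members wholly above control numbered 0 in eosinophilic, 2 in mixed (Arntl and Cry1) and 2 in neutrophilic lungs (Per1 and Cry1), beside 14.6%, 9.16% and 12.6% of all genes. On single arrays, 6 members lay below the lowest control value in eosinophilic mouse 8 and 9 in mouse 9, between 5 and 6 in mixed mice, and between 5 and 7 in neutrophilic mice. The share of all genes below control on each single array was not counted, so these counts have no background beside them. Eosinophilic mouse 9 and neutrophilic mouse 23 are the narrower arrays. Genes with a high control level were lower in general, and the part of this in the members' changes was not tested. The slopes of the log2 change on the control mean were -0.19, -0.08 and -0.18 in eosinophilic, mixed and neutrophilic lungs. Without mouse 7 and the narrower arrays these slopes were -0.05, -0.08 and -0.10. In that fit, with 1 eosinophilic mouse, the eosinophilic differences were -1.40 for Nr1d1, -1.21 for Per3, -0.99 for Dbp, -0.66 for Clock, -0.36 for Nr1d2 and -0.19 for Per1. With 2 neutrophilic mice the neutrophilic ones were -1.95 for Nr1d1, -1.91 for Per3, -1.78 for Dbp, -1.37 for Nr1d2 and -1.32 for Clock.

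**Figure D4:**
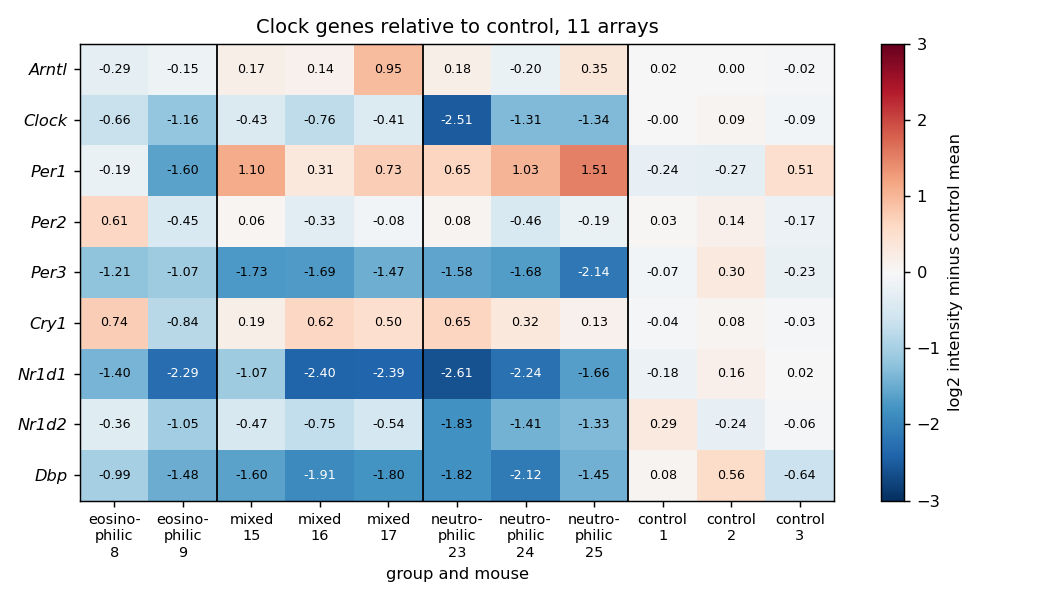
Log2 intensity minus the control mean for 9 clock genes (down the page) on 11 arrays (across, labelled with group and mouse number). Blue is below and red above the control mean, and the number in each cell is the difference. Per3, Nr1d1, Nr1d2, Dbp and Clock are negative on every model array, while Per1 is positive on every mixed and neutrophilic array and negative on both eosinophilic arrays.

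The 3 models were then compared with each other. Eosinophilic mice differ from the other models in route, aluminium hydroxide and schedule together, and these cannot be told apart. The hour at which lungs were taken is not given, so a difference in hour cannot be told apart from the models. No member was called in neutrophilic against eosinophilic lungs (limma, 4 of 9 at an unadjusted p under 0.05, 0.191% of all genes called), mixed against eosinophilic lungs (1 of 9, 0.0502%) or neutrophilic against mixed lungs (2 of 9, 0%). The widest difference was in Per1, which was 1.96 higher on the log2 scale in neutrophilic than in eosinophilic lungs (SE 0.42, 95% limits 1.04 and 2.87, adjusted p = 0.122) and 1.61 higher in mixed than in eosinophilic lungs (SE 0.42, adjusted p = 0.375). Without eosinophilic mouse 9, a narrower array, these Per1 differences were 1.25 and 0.90, resting on mouse 8 alone. Without mouse 8 they were 2.66 and 2.31, resting on mouse 9 alone. With 12 arrays they were 2.32 and 1.97. Between neutrophilic and mixed lungs, which differ by dose, Clock measured -1.19 (95% limits -1.86 and -0.51, adjusted p = 0.445) and Nr1d2 -0.94 (-1.51 and -0.36, adjusted p = 0.454), with no overlap between the 3 mice of each group (9.37% of all genes were lower without overlap). Per3 (-0.17, 95% limits -0.70 and 0.37), Nr1d1 (-0.22, -1.03 and 0.60) and Dbp (-0.03, -0.70 and 0.64) overlapped between these doses.

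In order of level over the 11 arrays, Per3 was lowest in neutrophilic, then in mixed, eosinophilic and control lungs. The mixed and neutrophilic ranges overlapped, while the values of eosinophilic mice 8 and 9 (5.90 to 6.04) stood clear of the mixed range (5.38 to 5.64) and of the control range (6.88 to 7.41). The value of mouse 7 (5.61) lay inside the mixed range. Dbp and Nr1d1 had the same order of means. The mixed and neutrophilic ranges of Dbp overlapped, and so did all 3 model ranges of Nr1d1, whose neutrophilic and mixed means were both 8.84 without the narrower arrays. With 12 arrays the eosinophilic mean was the lowest for Nr1d1 (7.70, against 8.62 in neutrophilic lungs), Dbp (6.51 against 6.64) and Nr1d2 (7.01 against 7.13). Nr1d2 and Clock were lowest in neutrophilic lungs over the 11 arrays, clear of the overlapping eosinophilic and mixed ranges. The eosinophilic mean of Nr1d2 lay below the mixed one there (7.95 against 8.07) and above it without the narrower arrays (8.29 against 8.07). For Per3, Nr1d1, Dbp, Nr1d2 and Clock the control mean was the highest in the fits with 11 arrays, with 12 arrays and without the narrower arrays.

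Beyond the 10 members, partners of both loops were measured as a list of 12 genes, of which 11 were on the table. In neutrophilic lungs 2 were called higher (Nfil3 and Bhlhe40) and 1 lower (Tef), in mixed lungs 1 higher (Nfil3) and 1 lower (Tef), and in eosinophilic lungs 1 higher (Nfil3). Of all genes 2.24% were called higher and 7.23% lower in neutrophilic, 1.41% and 1.57% in mixed, and 0.451% and 0.883% in eosinophilic lungs. With 12 arrays Nfil3 was the only partner called, in all 3 models. Bhlhe40 encodes DEC1, an E-box repressor that also responds to hypoxia and to cytokines. It rose by 1.51 in neutrophilic lungs (SE 0.42, adjusted p = 0.0365, 0.185 with 12 arrays) and measured 1.16 in mixed lungs (adjusted p = 0.197) and 0.32 in eosinophilic lungs (adjusted p = 0.746). The list's median change was 0.20 in eosinophilic, -0.06 in mixed and 0.05 in neutrophilic lungs, beside medians over all genes of 0.01, 0.00 and 0.05. The second cryptochrome gene Cry2 (-0.49, adjusted p = 0.499 in neutrophilic lungs) and Rora, which activates Arntl through the ROR element (-0.88, adjusted p = 0.136), were named after their values were seen and were not called.

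Of 10 genes for clock protein modifiers and corepressors 8 were measured. Btrc, a ubiquitin ligase subunit that marks Period proteins for breakdown, was called lower in neutrophilic lungs (log2 -1.16, SE 0.32, adjusted p = 0.0377, 0.131 with 12 arrays). Of all genes 7.23% were called lower in neutrophilic lungs. The other 7 modifier and corepressor genes were not called in any model. Of 6 rhythmic output genes 5 were measured. None was called in any model in the fit reported first or with 12 arrays. In the fit reported first 0, 3 and 1 had an unadjusted p under 0.05 (limma) in eosinophilic, mixed and neutrophilic lungs. Wee1, a cell cycle kinase gene with the smallest p of the output genes there, measured -0.63, -0.74 and -0.62 in these models (adjusted p = 0.339, 0.254 and 0.213). Without the narrower arrays, which leaves 1 eosinophilic mouse, output genes were called higher and lower in mixed lungs and higher in neutrophilic lungs. Calls over all genes rose in that fit too, so these calls are not a result about the output genes. Their median log2 change was then 0.26 in eosinophilic, 0.08 in mixed and 0.11 in neutrophilic lungs.

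Glucocorticoid hormone sets peripheral clocks and acts on Per1, so 12 genes it induces were measured. In mixed lungs 6 were called higher (1.41% of all genes were), in neutrophilic lungs 5 (2.24%) and in eosinophilic lungs 2 (0.451%), and none lower. The list's median change was 1.14 in mixed, 0.63 in neutrophilic and -0.02 in eosinophilic lungs. Fkbp5, a co-chaperone of the glucocorticoid receptor, rose by 2.66 in neutrophilic lungs (SE 0.41, adjusted p = 0.00173) and 2.55 in mixed lungs (SE 0.41, adjusted p = 0.00488), and measured 1.62 in eosinophilic lungs (adjusted p = 0.109). Zbtb16, a zinc finger gene, rose in all 3 models (1.56, 1.68 and 1.61 in neutrophilic, mixed and eosinophilic lungs, adjusted p = 0.00628, 0.00802 and 0.0349). Mt1 and Mt2, metallothionein genes that metals and cytokines also induce, rose by 4.20 and 5.07 in neutrophilic lungs and by 4.15 and 5.60 in mixed lungs (adjusted p at most 0.000915). Mt1 also rose in eosinophilic lungs (2.17, adjusted p = 0.0197).

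Cebpd, an acute-phase transcription factor gene, rose by 1.79 in neutrophilic and 1.80 in mixed lungs (adjusted p = 0.00329 and 0.00674), and Pdk4 rose in mixed lungs (1.44, adjusted p = 0.0286). Others were not called. Tsc22d3 (GILZ) measured -0.09, -0.02 and 0.03 in neutrophilic, mixed and eosinophilic lungs, and Sgk1 measured -0.01, 0.16 and -0.25. With 12 arrays 3 members of this list were called higher in neutrophilic, 2 in mixed and 0 in eosinophilic lungs. Of all 19937 genes 132, 65 and 15 were.

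Immediate early genes, which answer to handling and tissue stress, were the last list. Of 8 members 2 were called higher in neutrophilic lungs (Atf3, log2 2.13, adjusted p = 0.0179, and Junb, 1.29, adjusted p = 0.0355). In mixed lungs 1 was called higher (Atf3, 2.35, adjusted p = 0.0223), and in eosinophilic lungs 0. Of all genes 2.24%, 1.41% and 0.451% were called higher in neutrophilic, mixed and eosinophilic lungs. In eosinophilic lungs 3 members had an unadjusted p under 0.05 (limma) in either direction, among them Nr4a1, which was lower. With 12 arrays none of the 8 was called in any model. Fos measured 0.85 in neutrophilic (adjusted p = 0.128), 0.57 in mixed and -0.65 in eosinophilic lungs. Nr4a1, an orphan nuclear receptor gene, measured -1.47 in neutrophilic (adjusted p = 0.0982), -1.55 in mixed (0.161) and -2.03 in eosinophilic lungs (0.11), and lay below every control value on all model arrays. Without the narrower arrays, which leaves 1 eosinophilic mouse, Nr4a1 was called lower in mixed lungs and in neither other model. More members of the list were called higher than lower in that fit. Calls over all genes rose in it too, so these calls are not a result about the list. The median log2 change of the 8 members was then 0.93 in neutrophilic, 0.31 in mixed and 0.02 in eosinophilic lungs. In the fit reported first these medians were 0.49, 0.31 and -0.43.

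Markers of some lung cell types differed between the groups too. Of 8 blood endothelial markers 4 were called lower in neutrophilic lungs, 3 in mixed and 1 in eosinophilic lungs, where 7.23%, 1.57% and 0.883% of all genes were called lower. Their summed log2 level was 71.0 to 75.7 in neutrophilic, 74.96 to 79.2 in mixed and 76.7 to 79.2 in eosinophilic lungs, against 84.6 to 86.9 in control lungs. The receptor genes Tek and Calcrl measured -2.39 and -2.98 in neutrophilic lungs (adjusted p = 0.000119 and 0.00015). Of 6 alveolar type 1 markers 3, 2 and 1 were called lower in neutrophilic, mixed and eosinophilic lungs, with summed levels of 50.5 to 53.4, 53.2 to 55.6 and 50.3 to 56.0, against 57.7 to 59.8 in control lungs. Of 7 neutrophil markers 6, 6 and 0 were called higher, where 2.24%, 1.41% and 0.451% of all genes were. Their summed levels were 54.9 to 65.0, 57.9 to 63.8 and 50.2 to 56.4, against 40.6 to 48.0 in control lungs. Club cell, ciliated cell and fibroblast lists of 6 markers each had 2 called lower in neutrophilic, 0 in mixed and 1 in eosinophilic lungs. With 12 arrays the calls were 0 in all 3 models for endothelial markers. For alveolar type 1 markers they were 2 in neutrophilic, 0 in mixed and 1 in eosinophilic lungs, and for neutrophil markers 4, 0 and 0. Club cell markers then had 0, 0 and 1 called, ciliated cell markers 1, 0 and 1 and fibroblast markers 0, 0 and 1. B and plasma cell markers had 1, 0 and 0 called and alveolar macrophage markers 1, 1 and 1. Of all 19937 genes that fit called 289, 29 and 84 lower and 132, 65 and 15 higher in neutrophilic, mixed and eosinophilic lungs. A marker that is not expressed still has a background value on these arrays, and the lowest deposited log2 value was 2.27. The part of these shifts in the clock gene results was not tested, and in whole lung fewer cells of a type and less RNA per cell cannot be told apart.

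Genes with the most similar pattern were found by the root mean square difference of log2 values, each gene set to its control mean, over the 11 arrays. Nearest to Per3 were Rassf8 (0.23), Tbc1d30 (0.24) and Specc1l (0.26). Nearest to Nr1d1 were Ptch1, the hedgehog receptor gene (0.30), Aplnr, the apelin receptor gene of endothelium (0.32) and Fmo1, a flavin monooxygenase gene (0.34). Nearest to Dbp were Trp53bp2 (0.23), the ephrin gene Efna1 (0.26) and the growth factor receptor gene Fgfr4 (0.29), and nearest to Arntl were Olfr643 (0.16), Fam166c (0.20) and Il3ra (0.20). Among the members themselves, Clock and Nr1d2 were closest (0.27), then Per3 and Dbp (0.35). Each of the 9 neighbours of Per3, Nr1d1 and Dbp was lower in all 3 models, which the measure itself requires.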

How the data were processed

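Lung RNA of 12 mice was hybridised to Affymetrix arrays. The deposited values are log2 intensities. Per the submitters' processing notes, the authors used RMA and Affymetrix Expression Console, whose versions the labels leave out. The deposited arrays do not share 1 distribution: their SDs run between 0.995 and 2.04 and their medians between 4.94 and 5.50. Of 34760 probe sets, 21640 carried a single symbol, which gave 19937 genes, each read from its probe set with the highest mean. Members and gene lists were chosen with earlier results of these data known. R 4.3.3 with limma 3.58.1 fitted 4 group means (lmFit, eBayes, two-sided, Benjamini-Hochberg over all genes, adjusted p under 0.05). The fit was tested on simulated data. Up to 6 called genes a pathway list were named, or else the gene with the smallest p, and 2 markers a list by smallest p. Hlf, Cry2, Rora, Tsc22d3, Sgk1, Fos and Nr4a1 were named after their values were seen. Alternatives covered the arrays and groups in the fit, robust moderation with a trend, all probe sets of a gene averaged, a filter on dim genes, quantile normalization, centring, the array SD as a covariate and each mouse left out.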

Additional observations from a re-analysis of the deposited data

How the results depend on the processing

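Of 540 recomputed results of single members (9 members, 3 comparisons with control, 20 alternatives), 503 kept their direction and side of the threshold, 11 lost and 15 gained a call, and 11 changed sign, none of them called either way. With 12 arrays the counts of called members were 1 in mixed lungs, 1 in neutrophilic lungs and 1 in the F test. Without dim genes, and after quantile normalization, 1 member (Nr1d1) was called in eosinophilic lungs. Quantile normalization and the array SD as a covariate each called 1 member (Per1) in neutrophilic against eosinophilic lungs. Leaving out each mouse in turn gave 0 to 5 calls in eosinophilic, 1 to 3 in mixed and 5 to 6 in neutrophilic lungs, 0 to 2 in mixed against eosinophilic, 0 to 1 in neutrophilic against eosinophilic and 1 to 7 in the F test. The highest counts in eosinophilic lungs, in mixed against eosinophilic lungs and in the F test came from the fit without eosinophilic mouse 8. There mouse 9, a narrower array, stands alone and is assumed to vary like the other groups. Calls over all genes rose in that fit too, so its counts are not a result about the clock genes. The median eosinophilic change of the 9 members was -1.07 there. In mixed lungs the number of all genes called ranged from 173 without control mouse 2 to 962 without neutrophilic mouse 23. The F test called 1 member (Per3) without control mouse 1 or control mouse 2. The cause of these shifts was not tested.

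The sign changes concerned Arntl, Per2 and Cry1. With single mice left out, Arntl in neutrophilic lungs ranged between -0.011 and 0.27, Per2 in eosinophilic lungs between -0.45 and 0.61 and Cry1 in eosinophilic lungs between -0.84 and 0.74. The lowest values came without neutrophilic mouse 25 for Arntl and without eosinophilic mouse 8 for Per2, and the highest without eosinophilic mouse 9 for Cry1. Per2 in eosinophilic lungs was -0.38 with 12 arrays and -0.0016 without control mouse 3. Per2 was 0.00049 in mixed and 0.17 in neutrophilic lungs after quantile normalization, and 0.055 in neutrophilic lungs with the array SD as a covariate. Cry1 in eosinophilic lungs was 0.74 without the narrower arrays, 0.014 after centring and 0.077 with the array SD. No paired analysis was possible because the mouse numbers are not shared between groups.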

Other observations

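Eosinophilic mouse 7, left out of the 11-array fit, had log2 levels of 5.42 for Arntl, 5.64 for Clock, 5.66 for Per1, 5.42 for Per2, 5.61 for Per3, 5.73 for Cry1, 5.20 for Nr1d1, 5.14 for Nr1d2 and 5.13 for Dbp. On that array 8 of the 9 members lay below the control range and none above it. The share of all genes below control there was not counted, so this count is not a result about the clock genes. Values of all probe sets on that array were narrow (SD 0.995), with a median of 5.50 and quartiles of 4.92 and 6.08. All 9 members lay between these quartiles. Nfil3 measured 6.55 on the same array, close to the 6.66 and 6.67 of the other eosinophilic mice.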
